A study of Mus musculus with 12 samples.

Results

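The hepatocytes described here had received a virus carrying Cre recombinase against both REV-ERB genes, or the same kind of virus without Cre, and were kept in the solvent DMSO. Hepatocytes are the main cells of the liver. They came from male mice, 10 weeks old, with loxP sites in both Nr1d1 (REV-ERBα) and Nr1d2 (REV-ERBβ). The KO-labelled group had been given AAV8-TBG-Cre-GFP 2 weeks before isolation and the control group AAV8-TBG-GFP. Both groups thus carried the floxed alleles, an AAV8 virus and GFP, and were exposed to DMSO for 8 h. The other groups of the series, of both genotypes, received 10 µM SR9009, a compound used as a REV-ERB agonist. The means compared were those of the KO-labelled and the control libraries in DMSO, 3 of each, which is 6 of the 12 libraries. The spread in the limma fit was estimated from all 12 libraries. The comparison covered every gene with at least 1 FPKM in at least 3 of the 12 libraries, 11213 of the 37991 genes in the deposited table. FPKM is the number of sequenced fragments, scaled to the transcript's length and to the size of the library. The TBG promoter is hepatocyte-specific, so Cre was directed to hepatocytes and not to other liver cells. No library had Cre without floxed alleles, and effects of Cre and of REV-ERB loss cannot be told apart. The labels do not say whether the 3 libraries of a group came from separate mice. The p-values thus speak of the spread between libraries within groups alone, and that spread may be technical.

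The REV-ERBs are heme-binding members of the nuclear receptor family, and they repress transcription. They bind the same DNA element as the ROR receptors, which activate from it, and recruit the corepressor NCoR with the histone deacetylase HDAC3. In liver they form part of the circadian clock, where they repress Arntl (BMAL1), and they are known for control of lipid and bile acid metabolism.

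The targeted genes were measured first. Nr1d1 (mm9, chromosome 11, 98629246 to 98636647, minus strand) stood at 18.3, 18.3 and 19.0 FPKM in the control libraries and at 17.4, 17.5 and 18.3 FPKM in the KO-labelled ones. Its groups did not overlap, with a ratio of KO-labelled to control mean of 0.957 (exact two-sided permutation p = 0.1, the smallest that 3 against 3 can give). Nr1d2 (chromosome 14, 19036568 to 19071641) stood at 13.8, 14.7 and 17.4 FPKM in the controls and at 16.3, 16.2 and 16.1 FPKM in the KO-labelled libraries (exact two-sided permutation p = 0.4). The deposited values cover whole gene models, and which exons carried loxP sites was not known here, so these levels do not check the deletion. Nr1d1 also overlaps Thra on the opposite strand, and whether the counting used strand was not known either. The same holds for Thra, Dbp, Gm129, Nr1i3, Hnf4a, Cyp2f2, Sult1a1, Tgm2, Cp, Sqstm1, Map1lc3a and Rps2 below, each overlapped by a gene on the opposite strand, and Trf shares its locus with Gm20425 on the same strand.

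The 6 libraries differed somewhat in depth and makeup. Summed FPKM was 561475 to 575588 in the controls and 538521 to 549272 in the KO-labelled libraries. Genes at 1 FPKM or more numbered 10674 to 10739 and 10792 to 10932. Neither pair of ranges overlaps. The step between the lowest values gave relative depths of 77.1 to 100% for the controls and 63.4 to 92.3% for the KO-labelled libraries, the first of which was the shallowest. Pearson's r of log2 values across genes was 0.988 to 0.992 within groups and 0.974 to 0.978 between them. Albumin, the main hepatocyte product, was the most abundant hepatocyte marker at 20760 ± 112 to 20180 ± 604 FPKM (mean ± SD, n = 3, control first, as in all pairs of means below). Because RNA was measured from whole cultures, fewer cells of a type and less RNA per cell cannot be told apart.

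Of the 11213 genes, 2240 passed an adjusted p of 0.05 in limma (20%). When only the 6 DMSO libraries were fitted, 2587 passed. Of the 2240 genes, 1307 were higher in the KO-labelled libraries (11.7% of tested genes) and 933 were lower (8.32%). An unadjusted p under 0.05 was reached by 3642 genes. In 4615 genes (41.2%) all libraries of one group lay above all of the other. Most changes were small, with a median ratio of mean FPKM of 1.43 among the genes that rose and 1.41 among those that fell. A ratio of at least 2 was reached by 182 genes that rose and 198 that fell, and a ratio of at least 8 by 15 and 17. Abundant genes passed more often: 44.3% of the 707 genes with a mean of at least 100 FPKM did, against 14.3% of the 3791 genes under 5 FPKM. Summed over the genes that fell, the mean control total of 163595 FPKM went to 111184 FPKM, while the genes that rose went from 83290 to 115413 FPKM. The median log2 difference over all tested genes was 0.035, and it ran with transcript length, from -0.072 for the 1129 genes whose longest transcript is under 1000 bases to 0.089 for the 526 genes of at least 8000 bases. For the latter the first KO-labelled library stood at 0.209 above the control mean, and the other libraries at 0.004 and 0.054. When every library was centred on its median, 48.3% of the called genes were higher, against 58.3% as fitted. What part length or scaling has in the balance of higher and lower genes was not tested.

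**Figure D1:**
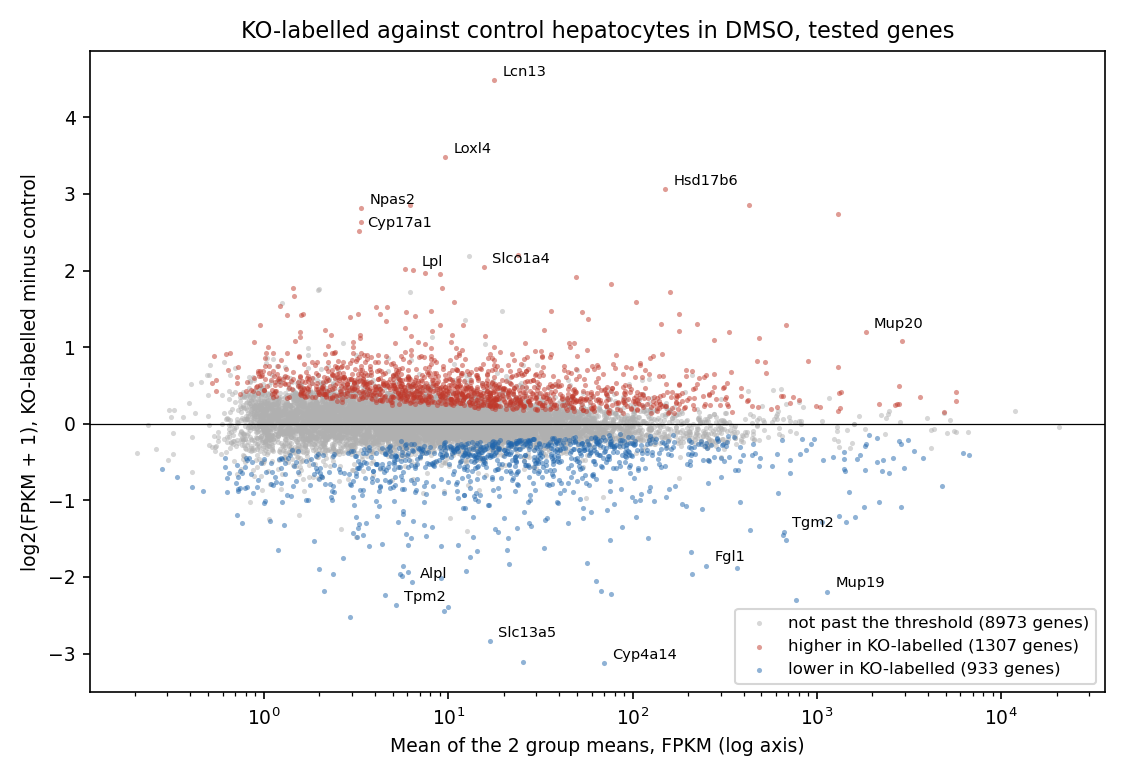
Difference between KO-labelled and control libraries in DMSO on the log2(FPKM + 1) scale (vertical axis) against the mean level in FPKM (horizontal axis, log scale), 1 point per tested gene. Red points are the 1307 genes that rose, blue points the 933 that fell, grey points the 8973 others. Large differences occur at low and at high levels in both directions.

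The differences recurred in the other 6 libraries of the series, which were exposed to SR9009 and do not enter the DMSO means. Both comparisons came from the same fit over all 12 libraries, so their calls share each gene's estimate of spread. The labels do not say whether the DMSO and SR9009 cultures came from the same mice. Of the 2240 genes called in DMSO, 2171 differed in the same direction there and 1484 passed the same threshold in that direction, which is 66.2% of the DMSO calls and 65% of the 2283 calls (20.4% of tested genes) under SR9009. All 40 genes named for the largest log2 differences in DMSO were among them. Only 2 genes were called in opposite directions. The difference between the 2 comparisons was itself past the threshold for 3 genes (0.0268%), while 787 had an unadjusted p under 0.05 for it.

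**Figure D2:**
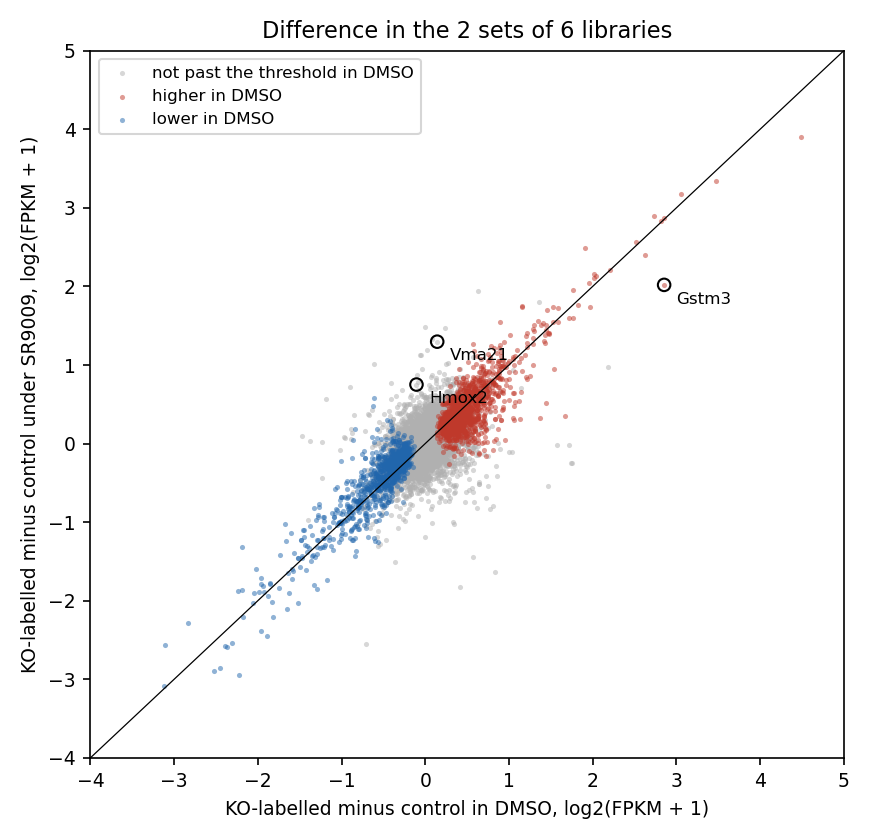
Difference between KO-labelled and control libraries in DMSO (horizontal axis) and under SR9009 (vertical axis), both on the log2(FPKM + 1) scale, 1 point per tested gene. Genes called in DMSO lie along the line of equal difference, with 2171 of 2240 on the same side of 0 in both. Circles mark the 3 genes whose differences differ between the comparisons.

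Several clock genes are well known targets of REV-ERB, and 9 of 22 tested members of the clock list passed, 6 higher and 3 lower. Arntl, the transcription factor BMAL1 (mm9, chromosome 7, 120350979 to 120457636), stood at 0.178, 0.159 and 0.306 FPKM in the control libraries and at 6.30, 6.33 and 6.85 FPKM in the KO-labelled libraries. Npas2, a partner of BMAL1 (chromosome 1, 39250576 to 39420079), went from 0.0485, 0.141 and 0.0711 FPKM to 6.80, 5.76 and 7.47 FPKM. In both genes every KO-labelled library lay far above every control. Clock, the other BMAL1 partner, rose from 2.53 ± 0.305 to 4.59 ± 0.106 FPKM (log2 difference 0.67 ± 0.12 SE), and Arntl2, the paralog of Arntl, was at 1.11 ± 0.240 FPKM in controls and 1.37 ± 0.124 FPKM in KO-labelled libraries with groups that overlap.

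RefSeq promoter windows (GRCm38.p6, 250 bases before to 50 after a start) are printed for 3 genes that rose, because they hold TNGGTCA on either strand, a loose form of the core of the element that REV-ERB and ROR bind (the RORE), whose usual letters are AGGTCA after an A/T-rich stretch. Capitals mark each match to TNGGTCA, called a core here, and in each of the 3 windows 1 match holds AGGTCA itself. The Arntl window lies at chr7:113207261-113207560 (plus strand) and holds 3 cores, the Nfil3 window at chr13:52980990-52981289 (minus strand) 1 core, and the Dhrs9 window at chr2:69380212-69380511 (plus strand) 2 cores.
Arntl: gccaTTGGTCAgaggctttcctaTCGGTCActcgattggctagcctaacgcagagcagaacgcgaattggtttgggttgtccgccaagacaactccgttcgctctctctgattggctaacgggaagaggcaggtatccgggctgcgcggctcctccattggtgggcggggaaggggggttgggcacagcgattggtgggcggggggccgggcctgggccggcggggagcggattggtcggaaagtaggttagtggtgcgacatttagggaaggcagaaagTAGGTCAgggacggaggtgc
Nfil3: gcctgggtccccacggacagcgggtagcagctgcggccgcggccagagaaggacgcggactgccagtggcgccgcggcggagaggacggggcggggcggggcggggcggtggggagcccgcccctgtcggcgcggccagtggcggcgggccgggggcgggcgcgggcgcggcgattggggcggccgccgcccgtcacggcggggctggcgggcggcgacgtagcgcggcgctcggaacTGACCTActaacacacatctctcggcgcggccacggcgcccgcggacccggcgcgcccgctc
Dhrs9: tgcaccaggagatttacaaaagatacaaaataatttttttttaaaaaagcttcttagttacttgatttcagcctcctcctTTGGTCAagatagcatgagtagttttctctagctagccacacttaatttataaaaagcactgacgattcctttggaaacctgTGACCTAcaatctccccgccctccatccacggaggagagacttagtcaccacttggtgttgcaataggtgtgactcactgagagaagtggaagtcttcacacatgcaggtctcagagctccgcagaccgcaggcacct
Among the 8314 of 11160 tested gene symbols with a RefSeq window, 12.1% held the core in at least 1 window. The share was 15.3% of the 1009 genes that rose, 12.1% of the 688 that fell and 11.7% of the 6617 that did not pass. Of genes with a ratio of at least 4, 6 of 28 that rose and 4 of 39 that fell held it. The E-box CACGTG is read by BMAL1 with CLOCK or NPAS2. It was in 12.6% of the genes that rose, 11.9% of those that fell and 12.6% of all tested genes with a window. The D-box TTANGTAA, read by DBP and NFIL3, was in 1.49% (15 genes), 3.2% (22 genes) and 1.91%. A match describes these letters only. Windows of Npas2, Clock, Cry1 and Nr1d1 held no such core, while windows of Per3, Cry2 and Tef, which did not pass, and of Tpm2 and Marco, which fell, held 1 each.

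None of the remaining clock members changed as much as Arntl or Npas2. Nfil3, a repressor that acts on D-boxes, went from 26.3, 23.2 and 24.7 FPKM in the controls to 48.6, 47.4 and 45.8 FPKM, a ratio of 1.91. Dbp, an activator on the same element, rose from 1.77, 1.64 and 1.66 to 4.46, 3.71 and 5.09 FPKM, with Sphk2 on the opposite strand. Cry1, a repressor of the BMAL1 complex, rose from 8.99 ± 0.410 to 13.1 ± 0.425 FPKM. Neither Tef (39.5 ± 2.07 to 42.6 ± 2.06 FPKM) nor Hlf (1.54 ± 0.168 to 1.26 ± 0.195 FPKM), the other activators on D-boxes, passed. Of the repressors, Per2 fell from 8.19 ± 0.213 to 5.42 ± 0.311 FPKM, whereas Per1 (27.3 ± 2.004 to 23.1 ± 0.425 FPKM, adjusted p = 0.11), Per3 and Cry2 did not pass. Ccrn4l, the nucleotide phosphatase nocturnin, fell from 8.20, 7.31 and 5.85 FPKM to 3.80, 2.91 and 2.43 FPKM. Gm129 (Ciart), a further repressor, fell from 10.1 ± 1.66 to 6.56 ± 0.863 FPKM, a call lost in 3 of 14 alternatives. The most abundant member, Bhlhe40, was at 94.7 ± 5.24 FPKM in controls and 91.3 ± 3.87 FPKM in KO-labelled libraries, and none of the 4 kinases and ligases of the list passed.

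Rora (RORα), which activates from the element that REV-ERB represses, rose from 4.47 ± 0.454 to 6.58 ± 0.514 FPKM, a call lost when the second control library was left out. The 6 members of the corepressor complex did not pass. Among 23 other nuclear receptors 3 rose and 3 fell, 26.1% of them beside 20% of all tested genes (1 rose with a filter of 5 FPKM, and 5 fell with no filter). Nr1h4, the bile acid receptor FXR, fell from 13.8 ± 1.14 to 9.44 ± 0.499 FPKM. Nr1i3, the xenobiotic receptor CAR, fell from 9.83 ± 1.59 to 6.49 ± 0.312 FPKM, with Tomm40l overlapping on the opposite strand. Ppard rose from 10.99 ± 0.294 to 14.5 ± 0.895 FPKM. Hnf4a, the most abundant of them, was at 254 ± 6.08 FPKM in controls and 226 ± 8.42 FPKM in KO-labelled libraries and did not pass. Of 29 hepatocyte transcription factors, 2 rose and 7 fell (median log2 difference -0.08). Foxa3, a forkhead pioneer factor, fell from 28.1 ± 2.38 to 16.5 ± 1.41 FPKM and Cebpd, of the C/EBP family, from 59.8 ± 1.25 to 42.3 ± 3.39 FPKM. The count of these factors that rose was 1 without the first or second control or the first or second KO-labelled library, 3 without the third KO-labelled one, and 4 when only the 6 DMSO libraries were fitted.

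Genes of steroid, retinoid and drug metabolism gave several of the largest increases. Cyp17a1, the steroid 17α-hydroxylase, was at 0.261, 0.152 and 0.401 FPKM in the controls and 6.78, 6.63 and 5.41 FPKM in the KO-labelled libraries. Dhrs9, a retinol and steroid dehydrogenase, went from 1.74, 1.69 and 1.69 FPKM to 9.99, 11.1 and 8.99 FPKM. For both genes every KO-labelled library lay far above every control. Of 31 steroid and retinoid dehydrogenases, 6 rose and 7 fell (median log2 difference -0.11). Hsd17b13, a lipid droplet retinol dehydrogenase, rose from 148 ± 8.58 to 242 ± 8.83 FPKM, and Akr1c20 fell from 19.7 ± 0.984 to 9.91 ± 0.566 FPKM. Of 8 genes of vitamin A handling, none rose and 3 fell (1 rose without the second control library). Cyp26a1, which degrades retinoic acid, fell from 2.72, 3.67 and 3.35 FPKM to 0.198, 0.744 and 0.516 FPKM. Aldh1a1, which makes retinoic acid, fell from 323 ± 21.1 to 189 ± 4.14 FPKM, a ratio of 1.71. Rbp4, the plasma retinol carrier, was at 2022 ± 104 FPKM in controls and 1645 ± 68.7 FPKM in KO-labelled libraries, and its call was lost under quantile normalization.

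The enzyme families of detoxification moved in both directions. Of 52 cytochromes P450, 23 rose and 12 fell, of 19 glutathione transferases 9 rose and 6 fell, and of 14 carboxylesterases 6 rose and 6 fell. Cyp3a59 went from 7.74, 8.37 and 7.58 FPKM to 36.5, 41.8 and 42.1 FPKM and Cyp2c55 from 3.33, 3.80 and 3.76 FPKM to 14.4, 14.1 and 15.9 FPKM. In both, the groups lie far apart. Cyp4a10, a fatty acid ω-hydroxylase, fell from 103, 102 and 103 FPKM to 21.6, 26.8 and 23.9 FPKM. Some members within the Cyp2a, Cyp2c, Cyp3a, Cyp4a, Gstm, Ces, Mup and Ugt1a families share similar sequence, and reads can be split between them. How similar they are was not measured here. Cyp2e1, the most abundant P450, was at 2027 ± 63.6 FPKM in controls and 1828 ± 57.4 FPKM in KO-labelled libraries, and its log2 difference of -0.15 became 0.069 under quantile normalization (adjusted p = 0.404). Its call was lost in 7 other alternatives of 14.

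Among glutathione transferases, grouped by class after their values were seen, 7 of 7 tested mu genes rose and 4 of 4 alpha genes fell. Of 3 theta genes 1 rose and 2 fell, and neither of the pi genes passed. Gstm1 went from 1808, 1911 and 1884 FPKM to 3810, 4088 and 3903 FPKM, the largest rise in mean FPKM among the genes named. Gstm2 rose from 33.3 ± 1.31 to 120.3 ± 11.2 FPKM, a ratio of 3.61. Gsta4, an alpha-class enzyme that clears lipid aldehydes, fell from 61.0, 66.6 and 65.0 FPKM to 25.04, 24.7 and 27.1 FPKM. Of the carboxylesterases, which hydrolyse esters of drugs and lipids, Ces1d fell from 121, 133 and 128 FPKM to 47.4, 50.1 and 50.1 FPKM, Ces1e and Ces1f fell from 45.8 ± 1.48 to 28.3 ± 2.19 and 80.7 ± 3.23 to 54.7 ± 1.16 FPKM, and Ces3b rose from 73.8 ± 2.94 to 123 ± 9.63 FPKM. Of 16 aldehyde dehydrogenases, 4 rose and 3 fell, with Aldh3a2, which oxidises fatty aldehydes, at 37.0, 39.3 and 42.3 FPKM in controls and 15.0, 15.9 and 15.6 FPKM in KO-labelled libraries. Of 7 sulfotransferase genes, 2 rose and 3 fell, and 1 rose without the second control or the first or the third KO-labelled library. Sult1e1, the estrogen sulfotransferase, fell from 7.92 ± 0.971 to 2.71 ± 0.718 FPKM, and Sult1a1 and the sulfate donor enzyme Papss2 fell from 57.0 ± 1.502 to 32.9 ± 1.78 and 57.6 ± 3.71 to 37.0 ± 3.25 FPKM. Of 16 UDP-glucuronosyltransferases, 3 rose and 2 fell, and 4 fell with median centring. Ephx1, the microsomal epoxide hydrolase, rose from 264 ± 7.04 to 424 ± 11.9 FPKM and Cbr1, a carbonyl reductase, fell from 78.9 ± 7.23 to 47.5 ± 3.51 FPKM, in a list of 35 antioxidant genes with 8 higher and 8 lower (5 lower under quantile normalization).

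**Figure D3:**
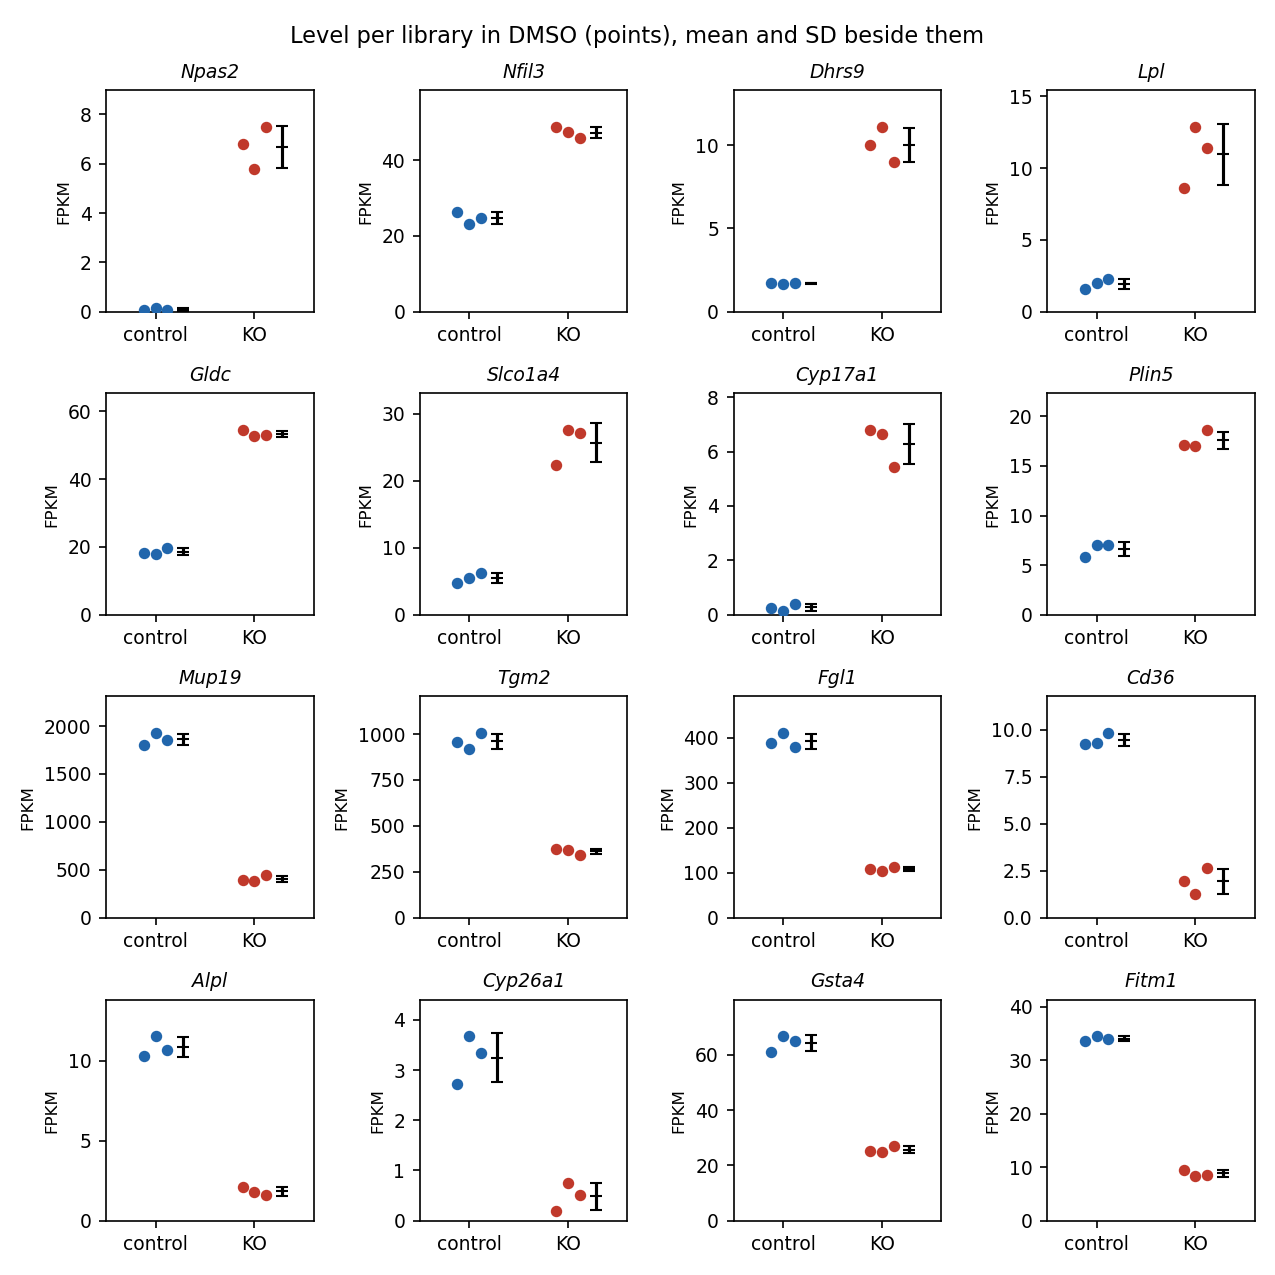
Level in FPKM (vertical axes, from 0) of 16 genes in the 3 control (blue) and 3 KO-labelled (red) libraries in DMSO, with mean and SD beside the points. In each panel the groups do not overlap. The first 8 genes are higher in the KO-labelled libraries and the other 8 lower.

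Liver lobules are zoned, with urea and glucose synthesis around the portal vein and glutamine synthesis and much drug metabolism around the central vein. Of 20 tested genes known as periportal, 14 rose and 1 fell, with a median log2 difference of 0.49. Of 15 pericentral genes, 1 rose and 7 fell, with a median of -0.27. Over all tested genes the median was 0.035. Gldc, of the glycine cleavage system, went from 18.2, 17.8 and 19.8 FPKM in the controls to 54.4, 52.8 and 53.1 FPKM (ratio 2.87). Cyp2f2, a P450 of the periportal zone, went from 197, 202 and 208 FPKM to 444, 466 and 481 FPKM. Agxt2l1 (Etnppl), which breaks down phosphoethanolamine, rose from 4.52, 5.03 and 4.94 FPKM to 15.2, 16.6 and 17.9 FPKM. In these 3 genes the groups are well apart and the spread within a group is small. The fall among periportal genes was that of Sds, serine dehydratase, from 55.5 to 29.9 FPKM, named here after its value was seen. On the pericentral side Aldh3a2 had the largest fall among the called genes, -1.29 on the log2 scale. Glul, glutamine synthetase, went from 229, 241 and 244 FPKM to 187, 190.1 and 200 FPKM, and Gulo, of ascorbate synthesis, fell from 84.5 ± 2.56 to 63.1 ± 2.76 FPKM, both with groups that do not overlap. Rgn, regucalcin, was the pericentral gene that rose, from 409 to 483 FPKM, and was likewise named after its value was seen. The count that rose was 0 with median centring and without the first control or the third KO-labelled library. Alb itself and 4 other periportal genes did not pass. Of the calls in these lists, 14 of 15 periportal and 6 of 8 pericentral passed in the same direction under SR9009. The zone a cell came from was not measured.

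**Figure D4:**
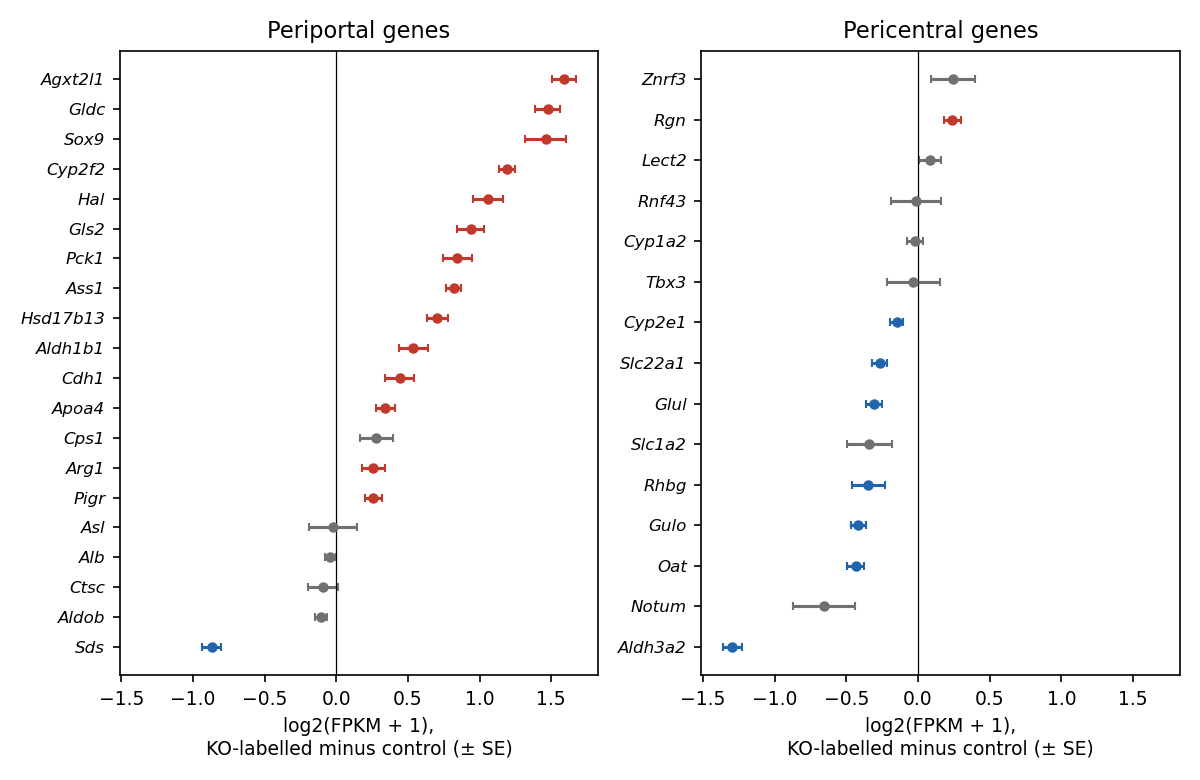
Difference between KO-labelled and control libraries in DMSO on the log2(FPKM + 1) scale with its standard error (horizontal axes) for the 20 tested periportal and 15 tested pericentral genes. Red and blue points passed the threshold, grey points did not. The periportal median is 0.49 and the pericentral median -0.27.

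Several periportal genes also belong to amino acid breakdown. Of 43 tested genes of the urea cycle and amino acid catabolism 21 rose and 4 fell (median 0.22). Among 10 urea cycle genes 4 rose and 1 fell, and among 33 catabolic genes 17 rose and 3 fell. Ass1, argininosuccinate synthase, went from 648, 627 and 659.6 FPKM to 1093, 1166 and 1154 FPKM. Tdo2, which opens the tryptophan ring, went from 187, 166 and 175 FPKM to 353, 385 and 394 FPKM. In one-carbon and methionine metabolism 10 of 25 genes rose and 7 fell. Mat1a, which makes S-adenosylmethionine, rose from 184, 202 and 204 FPKM to 292, 308 and 317 FPKM, and Cbs, which starts transsulfuration, from 62.5, 70.8 and 72.8 FPKM to 114, 120.0 and 110.4 FPKM. Aldh1l1, a folate dehydrogenase, rose from 192 ± 10.5 to 295 ± 10.0 FPKM. Csad, which leads to taurine, fell instead, from 128, 137 and 131 FPKM to 63.8, 70.5 and 69.0 FPKM. Of the 3 genes of serine synthesis, 2 fell. Among 18 tRNA synthetases 3 rose, 16.7% of them beside 11.7% of all tested genes, with Tars from 81.5 ± 1.18 to 139 ± 5.03 FPKM the clearest of them (log2 difference 0.77 ± 0.05 SE, adjusted p = 2.12e-07).

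Bile acid genes rose more often than they fell, 11 against 3 of 22, with a median log2 difference of 0.21. With every library centred on its median, 6 rose. The sinusoidal transporter Slco1a4 went from 4.73, 5.51 and 6.20 FPKM in controls to 22.4, 27.5 and 27.2 FPKM. Abcb4, which secretes phosphatidylcholine into bile, went from 39.6, 37.7 and 37.4 FPKM to 79.4, 70.9 and 75.7 FPKM. Cyp7b1, of the alternative synthesis pathway, went from 58.6, 57.1 and 56.9 FPKM to 98.4, 95.6 and 106 FPKM. In all 3 the KO-labelled libraries lay above every control. Cyp27a1, the first enzyme of the same pathway, fell from 247 ± 6.81 to 205 ± 6.86 FPKM, and Slco1b2, an uptake carrier, fell from 44.9 ± 4.23 to 28.7 ± 6.30 FPKM. Abcc4, a basolateral efflux pump at low level, fell from 1.31, 1.04 and 1.04 FPKM to 0.471, 0.271 and 0.224 FPKM, while Abcc3, another such pump, rose from 82.9 ± 2.02 to 111 ± 4.86 FPKM. Of 34 ABC transporters as a whole, 8 rose and 1 fell, 26.5% of them beside 20% of all tested genes. The count that rose was 5 with a filter of 5 FPKM and without the second control library.

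Genes of lipid storage were mixed. Of 28 genes of lipid droplets and triglyceride turnover 6 rose and 11 fell (median -0.10). Cd36, a fatty acid transporter, went from 9.22, 9.28 and 9.80 FPKM to 1.93, 1.28 and 2.62 FPKM, and Fitm1, which helps droplets form, from 33.7, 34.5 and 34.1 FPKM to 9.57, 8.34 and 8.63 FPKM. Plin5, a droplet coat protein, rose from 5.8, 7.01 and 7.07 FPKM to 17.1, 17.0 and 18.6 FPKM. Fabp1, the abundant fatty acid binding protein of liver, fell from 2493 ± 207 to 1753 ± 84.5 FPKM. Among 27 apolipoproteins and genes of lipoprotein handling 9 rose and 3 fell (median 0.16). Lpl, lipoprotein lipase, which adult hepatocytes make little of, went from 1.56, 2.03 and 2.25 FPKM to 8.62, 12.8 and 11.4 FPKM, a ratio of 5.62 with no overlap. The hepatic lipase Lipc rose from 55.3 ± 1.63 to 73.3 ± 1.08 FPKM. The 2 main HDL proteins moved apart, Apoa1 from 4865, 5162 and 4669 FPKM to 6215, 6734 and 6640 FPKM and Apoa2 from 7187, 8136 and 7363 FPKM to 5446, 5943 and 5769 FPKM.

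Peroxisomal and mitochondrial fuel genes showed no common direction. Of 31 peroxisome genes 5 rose and 5 fell. Acaa1b, a peroxisomal thiolase, went from 557, 622 and 570.4 FPKM to 156, 159 and 158 FPKM, and Crot and Decr2 fell from 62.5 ± 3.19 to 41.2 ± 1.601 and 53.4 ± 1.43 to 35.4 ± 2.34 FPKM. Catalase (Cat) rose from 572 ± 19.5 to 733 ± 17.3 FPKM. Vnn1, a pantetheinase, fell from 19.6, 20.9 and 20.9 FPKM to 4.97, 4.16 and 4.86 FPKM. Of 34 genes of the TCA cycle, pyruvate dehydrogenase and its carriers 6 rose and 8 fell, and leaving out any 1 library left 1 to 4 that rose, the fewest without the third KO-labelled library, and 5 or 6 that fell. Pdk2, an inhibitor kinase of pyruvate dehydrogenase, fell from 14.9 ± 0.724 to 9.62 ± 0.755 FPKM and Pdk4, another, rose from 4.62 ± 0.442 to 6.63 ± 0.606 FPKM.

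Among hormone pathways, the insulin list had 5 of 23 genes higher and 1 lower, 26.1% of them beside 20% of all tested genes. Irs1, an insulin receptor substrate, went from 1.39, 1.39 and 1.26 FPKM to 3.43, 3.11 and 2.82 FPKM. Gckr, the regulator of glucokinase, rose from 34.1 ± 1.40 to 55.0 ± 0.420 FPKM and the pseudokinase Trib1 fell from 38.5 ± 2.32 to 20.7 ± 1.45 FPKM. Without the second control library 2 of the 23 rose, and without the second KO-labelled one 3 did. Of 20 glucocorticoid targets 3 rose and 5 fell (8 fell when only the 6 DMSO libraries were fitted). Dusp1, a MAP kinase phosphatase, fell from 43.7, 52.2 and 46.7 FPKM to 19.8, 20.2 and 17.7 FPKM, while Pck1, of glucose synthesis, rose from 18.2 ± 0.547 to 33.6 ± 2.07 FPKM. Of 10 thyroid hormone genes 4 rose and 3 fell, among them the carriers Serpina7, down from 115 ± 3.21 to 78.6 ± 3.38 FPKM, and Slc16a10, up from 19.9 ± 1.38 to 32.6 ± 1.53 FPKM. Thra rose from 1.73 ± 0.221 to 3.12 ± 0.294 FPKM, with Nr1d1 overlapping on the opposite strand at a higher level. Of 15 genes of the growth hormone and IGF axis 4 rose and none fell, 26.7% of them beside 20% of all tested genes. Igfals, which stabilises circulating IGF, rose from 2.58, 2.41 and 2.95 FPKM to 4.73, 5.94 and 5.54 FPKM, and Igfbp2 from 338 ± 18.7 to 434 ± 9.64 FPKM.

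The major urinary proteins, abundant pheromone carriers secreted by the male liver, had the highest share of calls among the families described. Of 18 members 15 fell and 2 rose, with a median log2 difference of -1.09. Mup19 went from 1807, 1924 and 1851 FPKM to 394, 386 and 443 FPKM and Mup16 from 982, 976 and 901 FPKM to 327, 366 and 354 FPKM. Mup20 (darcin) rose, from 1101, 1186 and 1057 FPKM to 2455, 2581 and 2649 FPKM. Mup3 was at 5188 ± 286 FPKM in controls and 5385 ± 254 FPKM in KO-labelled libraries with groups that overlap. All 21 genes of the family, tested or not, summed to 38530 to 41570 FPKM in the controls and to 23250 to 24920 FPKM in the KO-labelled libraries. These totals do not overlap. Of 17 genes known to differ between the sexes 9 rose and 5 fell. Within the 15 that are higher in males 8 rose and 4 fell. Moxd1, a monooxygenase-like protein, went from 0.109, 0.0470 and 0.167 FPKM to 2.63, 2.76 and 2.92 FPKM, and Cyp4a12a fell from 80.1, 82.4 and 84.8 FPKM to 35.2, 37.7 and 37.0 FPKM.

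Other secreted products changed as well. Fgl1, a fibrinogen-like hepatokine, went from 387, 409.7 and 379 FPKM to 107, 104 and 113 FPKM, a ratio of 3.63. Serpina12 (vaspin), an adipokine, went from 3.31, 2.996 and 3.01 FPKM to 13.8, 15.1 and 15.8 FPKM. Both genes have groups that lie far apart. Of 29 hepatokines and growth factors 5 rose and 9 fell, with Adm (adrenomedullin) down from 31.5 ± 5.06 to 10.6 ± 1.69 FPKM, the activin antagonist Fst from 16.3 ± 1.30 to 8.10 ± 0.946 FPKM and Enho (adropin) from 6.47 ± 0.376 to 3.16 ± 0.296 FPKM. Of 26 serpins 9 rose and 6 fell, and Serpina6, which carries corticosteroids in plasma, fell from 69.1, 78.6 and 75.1 FPKM to 41.6, 40.9 and 43.7 FPKM. Clotting genes numbered 6 higher and 4 lower of 25, and the count that fell was 2 under quantile normalization. Factor XI (F11) rose from 15.5, 15.9 and 14.1 FPKM to 28.4, 29.6 and 30.1 FPKM and factor XII (F12) from 251 ± 2.51 to 314 ± 4.84 FPKM. Of 32 complement genes 7 rose and 4 fell (2 fell without the first KO-labelled library). C3, the most abundant, was at 1047 ± 23.1 FPKM in controls and 1072 ± 17.8 FPKM in KO-labelled libraries with overlapping groups. Alpl, alkaline phosphatase, fell from 10.3, 11.5 and 10.7 FPKM to 2.14, 1.81 and 1.58 FPKM.

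Chemokine and cytokine genes were mostly at low level. Of 38 tested 8 rose and 5 fell. Leaving out any 1 library left 3 to 6 that rose, the fewest without the second or the third control, and 3 fell without the first or the third control or the second KO-labelled library. Ccl2, a monocyte chemoattractant, was at 31.2, 14.9 and 16.7 FPKM in the controls, the first of them the highest, and at 80.7, 74.5 and 77.2 FPKM in the KO-labelled libraries. Ccl7, a neighbour of the same class, rose from 1.72 ± 0.729 to 4.96 ± 0.763 FPKM, a call lost with a pseudocount of 0.1. Il33, an alarmin, fell from 6.12, 7.21 and 7.79 FPKM to 1.83, 2.11 and 1.24 FPKM, and Zfp36, which destabilises cytokine transcripts, from 60.8, 62.3 and 63.4 FPKM to 35.3, 30.6 and 33.5 FPKM.

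Matrix and cytoskeletal genes showed falls at high abundance. Of 27 matrix genes 9 rose and 8 fell. Tgm2, tissue transglutaminase, went from 955, 920.2 and 1004 FPKM to 373, 366 and 344 FPKM, and Tgm1, a related enzyme, from 9.56, 10.1 and 10.8 FPKM to 1.99, 2.22 and 1.56 FPKM. Both fell in every KO-labelled library. Itih3 and Itih1, heavy chains that bind hyaluronan, rose from 341 ± 6.39 to 602 ± 12.2 and 154 ± 1.28 to 236 ± 2.88 FPKM. Of 43 cytoskeletal and junction genes 6 rose and 9 fell (median -0.07). All 6 that rose were among 16 junction genes, and 7 of the 9 that fell were among 27 filament genes. The keratins of hepatocytes fell, Krt8 from 4382, 4391 and 4320 FPKM to 3218, 3429 and 2960 FPKM and Krt18 from 2703, 2719 and 2707 FPKM to 1780, 1878 and 1662 FPKM. Tagln2, an actin-binding protein, fell from 19.6 ± 1.195 to 9.29 ± 1.54 FPKM. Of 36 RAB GTPases 3 rose and 4 fell, 19.4% of them beside 20% of all tested genes, so the family did not stand out by its count. Rab30, of Golgi traffic, fell from 14.7, 19.6 and 18.1 FPKM to 4.60, 5.53 and 5.34 FPKM. The count of RAB genes that fell was 1 to 3 when any 1 library was left out, the fewest without the third control or the second KO-labelled one.

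Of 22 genes of iron handling and metallothioneins 7 rose and 4 fell. Hfe2 (hemojuvelin), a coreceptor that controls hepcidin, went from 3.38, 2.92 and 2.76 FPKM to 9.19, 7.74 and 8.86 FPKM. Ceruloplasmin (Cp), a ferroxidase, went from 366, 275 and 279.7 FPKM to 727, 593 and 669.8 FPKM, with wide spread in both groups but no overlap. Transferrin (Trf) rose from 3167 ± 168 to 4046 ± 70.7 FPKM. The heavy ferritin chain Fth1 rose from 5105 ± 264 to 6260 ± 104 FPKM, a call lost with median centring. Mt1, a metallothionein, fell from 7032 ± 333 to 5387 ± 285 FPKM, a call lost without the second control, the third control, the first KO-labelled or the third KO-labelled library. The count of the list that fell was 2 without the second control, the first KO-labelled or the third KO-labelled library. In heme metabolism Hmox1, heme oxygenase 1, fell from 111, 94.0 and 90.3 FPKM to 56.6, 48.9 and 54.2 FPKM, the single fall among 13 genes. Alas1, which limits heme synthesis, was at 165 ± 31.3 FPKM in controls and 220.5 ± 30.7 FPKM in KO-labelled libraries and did not pass (adjusted p = 0.0919).

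Of 45 genes of autophagy and the lysosome 14 rose and 3 fell (median 0.09). The 22 lysosomal genes held 12 of the rises and no fall, and the 23 autophagy genes 2 rises and 3 falls. In all, 5 fell with median centring or without the third KO-labelled library. Cathepsin L (Ctsl) went from 957, 1014 and 959 FPKM to 1573, 1673 and 1641 FPKM. Sqstm1 (p62), a cargo receptor of autophagy, rose from 1137 ± 19.0 to 1496 ± 39.1 FPKM. Map1lc3a, which coats autophagosomes, fell from 69.4, 81.6 and 72.6 FPKM to 51.2, 43.9 and 44.2 FPKM. Cdkn1a, a cell cycle inhibitor, rose from 147 ± 6.84 to 209 ± 3.50 FPKM, and Phlda3, a p53 target, went from 2.55, 2.50 and 2.38 FPKM to 13.6, 12.3 and 11.9 FPKM.

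Of 193 solute carriers 32 rose and 25 fell, 29.5% of them, beside 20% of all tested genes. Slc2a2, the glucose transporter GLUT2, went from 92.7, 102 and 105 FPKM to 41.8, 52.2 and 41.9 FPKM. Slc22a7, an organic anion carrier, fell from 4.73, 4.82 and 5.14 FPKM to 1.32, 0.936 and 1.34 FPKM, and Slc30a10, a manganese exporter, rose from 2.18, 1.997 and 2.30 FPKM to 7.28, 6.80 and 6.92 FPKM. In these 3 genes no KO-labelled library came near a control. The most abundant carrier, Slc25a47 of mitochondria, was at 703 ± 56.0 FPKM in controls and 720.2 ± 9.34 FPKM in KO-labelled libraries with overlapping groups.

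**Figure D5:**
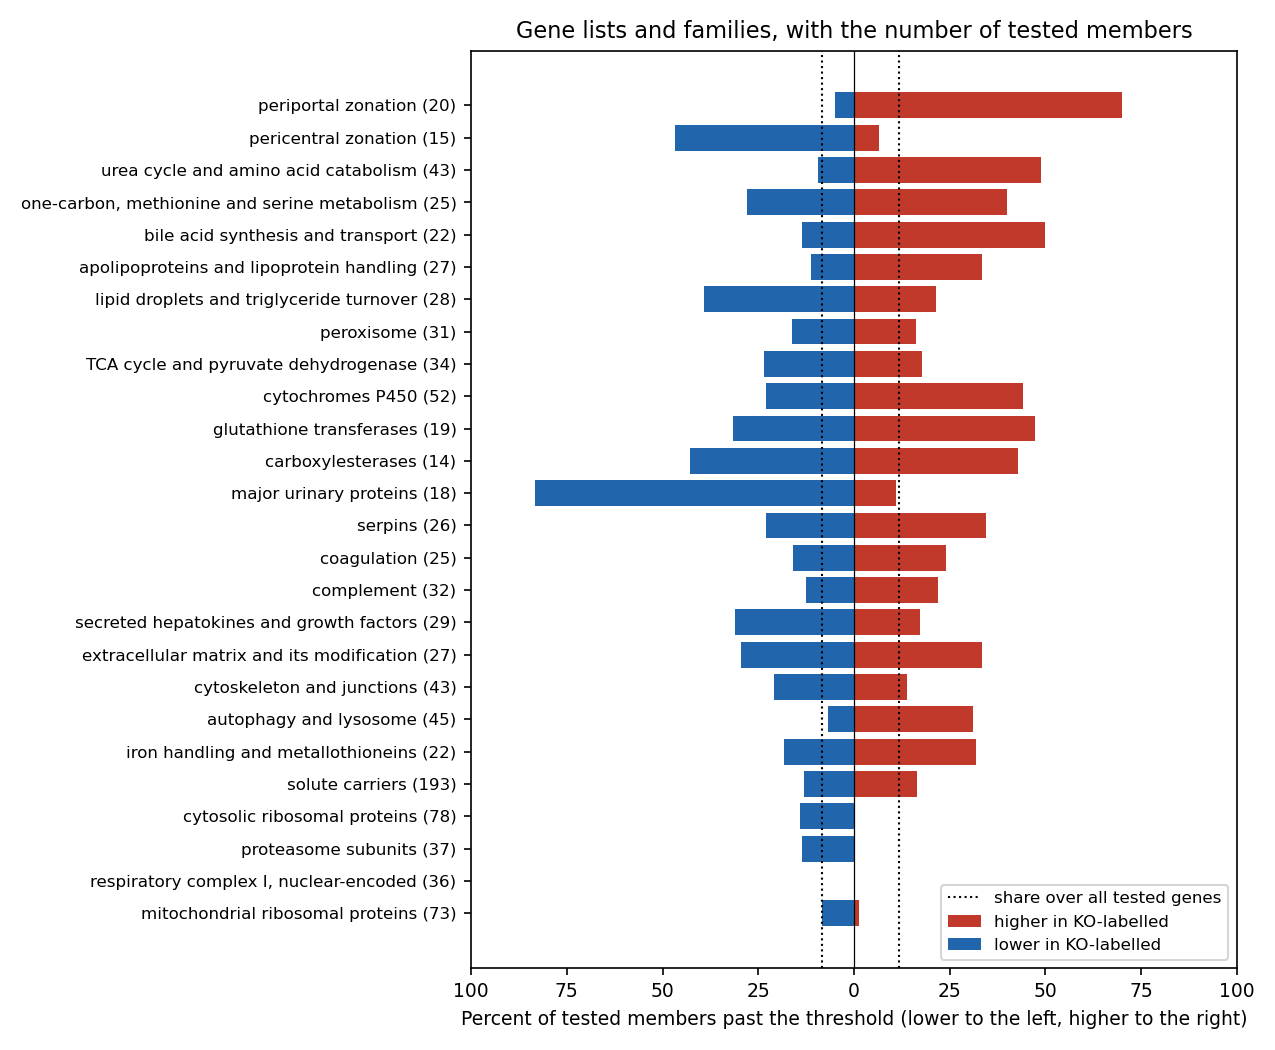
Percent of tested members of 26 gene lists and families that rose (red, to the right) or fell (blue, to the left) in the KO-labelled libraries, with the number tested in brackets. Dotted lines give the shares over all tested genes, 11.7% higher and 8.32% lower. Major urinary proteins fall and periportal genes rise most often among those drawn.

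Genes of respiration seldom passed. None of 36 nuclear genes of respiratory complex I passed in limma (median -0.02), and 1 rose and 1 fell of 42 genes of complexes III to V, both counts 0 when any 1 library was left out. In complex I, the alternatives gave at most 1 higher and 2 lower. Of 73 mitochondrial ribosomal proteins 1 rose and 6 fell, and 0 to 4 fell when any 1 library was left out, the fewest without the second control. Cytosolic ribosomal proteins had a median log2 difference of -0.21, and 0 of 78 rose and 11 fell at the threshold. Their groups did not overlap for 69 of 78 genes, beside 41.2% of all tested genes. The count that fell was 50 when only the 6 DMSO libraries were fitted and 21 under quantile normalization, and 3 to 5 when any 1 library was left out. Rps2 went from 505, 549 and 515 FPKM to 404, 422 and 382 FPKM and Rplp1, the most abundant, from 971 ± 60.9 to 766 ± 6.04 FPKM, a call lost in 10 of 14 alternatives. Of 37 proteasome subunits 5 fell, and 0 to 3 fell when 1 library was left out. The 5 are 13.5% of them, beside 8.32% lower and 20% called over all tested genes. Under SR9009, 0 of these 5 calls passed in the same direction. For cytosolic ribosomal proteins 3 of 11 calls did, and for mitochondrial ones 1 of 7. Many transcripts of these families are short, and the median difference was -0.072 over all genes under 1000 bases. The part of length in their counts was not tested. Of 56 translation initiation factors 2 rose and 7 fell, 16.1% of them, a share below that over all tested genes, and 3 to 5 fell when any 1 library was left out, the fewest without the third KO-labelled one. Eif1 fell from 247 ± 10.4 to 188 ± 4.99 FPKM.

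Markers of other liver cells were low and moved in different directions. The 12 Kupffer cell markers, tested or not, summed to 52.6 to 65.0 FPKM in the controls and 38.4 to 51.1 FPKM in the KO-labelled libraries. Of the 9 tested, 1 was higher and 4 lower. The count that fell was 2 without the second or the third control or the first or second KO-labelled library. Marco, a scavenger receptor, went from 9.90, 10.6 and 8.02 FPKM to 1.29, 1.53 and 2.18 FPKM, and C1qb fell from 6.26 ± 1.14 to 3.31 ± 0.986 FPKM. Cd68 was the gene that rose, from 18.3 ± 1.86 to 23.7 ± 2.95 FPKM, a call lost in 7 of 14 alternatives. The 12 endothelial markers, tested or not, summed to 12.2 to 12.4 FPKM in the controls and 16.3 to 23.7 FPKM in the KO-labelled libraries. Of the 6 tested, 3 rose, none of which passed under SR9009. With 1 library left out 1 to 4 of them rose in the DMSO comparison, 4 without the second KO-labelled one and 2 without the first control. Of 5 cholangiocyte markers 1 rose and 1 fell. Sox9, also made by periportal hepatocytes, went from 3.28, 2.34 and 2.38 FPKM to 10.5, 7.82 and 8.91 FPKM, and Spp1 fell from 39.9 ± 0.863 to 24.4 ± 3.09 FPKM. Ighm, of B cells, fell from 1.83, 2.65 and 2.34 FPKM to 0.129, 0.354 and 0.440 FPKM, while Ms4a1 was at 0 in all 6 libraries. No marker of T and NK cells or of neutrophils was abundant enough to be tested, and 4 of each were at 0 in all 6 libraries. The 4 tested red cell markers and the 1 tested stellate cell marker did not pass. Of the 12 hepatocyte markers 6 rose and none fell, so the lists do not move as one. The part of the shifts in Kupffer and endothelial markers in the chemokine and matrix results was not tested.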

How the data were processed

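RNA of 12 hepatocyte libraries was measured, 3 in each of 4 groups. Per the submitters' processing notes, reads were aligned with HISAT2 to mm9 and quantified with StringTie, with no version, annotation or strand setting stated in what was used here. The deposited table holds 1 FPKM value per gene and library. Its header names no unit, and FPKM was inferred from the values, whose library sums differ and whose low values lie on steps that scale with gene length. Total fragment counts are unknown, so only relative depth can be given.

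Genes that reached 1 FPKM in 3 or more of the 12 libraries were tested on log2(FPKM + 1) with limma 3.58.1 (R 4.3.3, trended and robust), with 4 group means and Benjamini-Hochberg adjustment over 11213 genes at 0.05. Log2 differences are on the log2(FPKM + 1) scale, which understates the change of low genes. Ratios are of mean FPKM with no pseudocount. Python 3.11.15, pandas 2.3.3, numpy 2.4.6 and scipy 1.17.1 made the other values. The fit was tested on simulated data. The alternatives tried were another pseudocount, other filters, scalings and fits, a replicate block and leaving out each library.

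The members and gene lists were chosen with earlier results of these data known. Genes were named by rule: the clock list, the 20 largest log2 differences and 10 largest FPKM differences per direction among called genes (without overlap between groups for the former), and up to 4 members per list by p with its most abundant member, and genes whose difference differed between DMSO and SR9009. Not every gene the rule picks is described, and some are not reported here. Promoter windows are RefSeq's (GRCm38.p6), and the RORE core was searched as TNGGTCA, looser than the A/T-rich form first planned.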

Additional observations from a re-analysis of the deposited data

Results flagged for a closer look

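In 3 genes the difference between KO-labelled and control libraries itself differed between DMSO and SR9009 (interaction term in limma over 12 libraries). Gstm3 is a glutathione transferase whose gene model overlaps that of Gstm6 on the same strand. It rose in both, by 2.85 in DMSO (104 to 752 FPKM) and by 2.02 under SR9009 (317 to 1286 FPKM) on the log2 scale. The interaction was -0.83 (adjusted p = 0.0307). Hmox2, the constitutive heme oxygenase, differed by -0.10 in DMSO (36.8 and 34.1 FPKM) and by 0.75 under SR9009 (21.1 and 36.3 FPKM), an interaction of 0.86 (adjusted p = 0.00854), with 5730403B10Rik overlapping on the opposite strand. Vma21, an assembly factor of the proton pump, differed by 0.14 in DMSO (6.43 and 7.20 FPKM) and by 1.30 under SR9009 (2.71 and 8.04 FPKM), an interaction of 1.15 (adjusted p = 0.0414). The spread of each group is that of 3 libraries, and no cause was tested.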

How the results depend on the processing

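The number of called genes, 2240 as fitted, was between 1866 and 2587 under the other settings and between 1607 and 1759 when 1 library was left out (909 to 1035 higher, 698 to 763 lower). The count of genes whose difference differed between DMSO and SR9009 was 1 under quantile normalization, 1 with median centring and 0 with a replicate block. Of 248 called genes among the 288 named, 49 lost the call in at least 1 of 14 alternatives. Cyp2e1 was the 1 that reversed, to 0.069 under quantile normalization. The labels do not say what a replicate number marks. Same-numbered control and KO-labelled libraries in DMSO correlated at 0.014, 0.020 and -0.093 in their deviations from the group means. Differently numbered ones correlated at -0.070 to 0.062. Pairing of DMSO with SR9009 libraries of the same number was not examined. The fit with the replicate block called 2084 genes. Causes of these shifts were not tested. Low genes are limited by depth, with 1 fragment on a transcript of 1 kb worth 0.0187 to 0.0294 FPKM.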
